A study of Drosophila melanogaster with 10 samples.

Results

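The genes described here are 74 of the 11982 genes measured by a probe set with 1 gene symbol (0.618%) on arrays of sorted Drosophila S2 cells. Each read at least 1 higher on the log2 scale (at least 2-fold) in both G1 and G2/M in the cultures where the probe set of Slimp itself was bright. They were chosen by the signals of these same 10 arrays, so the size of the difference between bright and dim cultures is given as a description, with no test. Slimp was left out of the set, and a gene with several passing probe sets was represented by the one with the highest mean over the arrays.

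The study set S2 cells depleted of SLIMP against control S2 cells in 2 phases of the cell cycle. S2 is an embryonic Drosophila line with properties of haemocytes, the blood cells of the fly. Per the labels, copper sulfate switched on the knockdown in stable lines, live cells were stained with a DNA dye and sorted, and RNA from 25000 cells per library was amplified over 15 PCR cycles before it was put on the array. There were 4 groups: G1 control (n = 3, replicates 1 to 3), G2/M control (n = 3), G1 SLIMPKD (n = 2, replicates 2 and 3) and G2/M SLIMPKD (n = 2). The labels call the control cells WT and do not say whether they carried an inducible construct or received copper. MtnA, a copper-induced metallothionein, read 13.995 to 14.153 on every array. That is close to the array maxima of 14.22 to 14.37, so equal exposure to copper cannot be read from it. The G1 and G2/M arrays of 1 label and number are called a culture below, a pairing that the labels do not state. Since the labels do not tell whether each number was grown separately, the p-values below reflect only how much these arrays vary, which may be technical.

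Slimp went against its labels. In the cultures labelled control 3 and SLIMPKD 2 it read 12.55 and 12.59 in G1 and 12.51 and 12.53 in G2/M. In those labelled control 1, control 2 and SLIMPKD 3 it read 8.80, 8.95 and 8.68 in G1 and 8.90, 9.06 and 8.97 in G2/M. A library labelled control was therefore bright and a library labelled SLIMPKD was bright, and neither label was uniform. The first 2 cultures are called the high-Slimp cultures and the other 3 the low-Slimp cultures. These names describe a signal and not a treatment, and the labels give no group that matches them. Whether the cultures differ by Slimp, by cell line, by construct or by handling cannot be told apart in these arrays. In a bulk sample, more cells that express a gene and more RNA per cell cannot be told apart either.

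SLIMP works in the mitochondria of insects and resembles seryl-tRNA synthetase, the enzyme that loads serine onto its tRNA, but does not itself charge tRNA. S2 cells keep a haemocyte-like programme and hold many tissue-specific genes silent, such as receptors of olfactory neurons and many proteins of the muscle sarcomere. Glycogen and trehalose, by contrast, are carbohydrate stores that many fly cells handle.

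All signals below are log2 values. Values are listed in the order control 1, control 2, SLIMPKD 3 for the low-Slimp cultures and control 3, SLIMPKD 2 for the high-Slimp cultures. Across the 74 genes the median difference between high-Slimp and low-Slimp cultures was 1.59 in G1 (range 1.01 to 3.66) and 1.39 in G2/M (range 1.04 to 3.68). Over all 11982 genes the medians were 0.01 and -0.02. In all 74 genes both high-Slimp arrays lay above all 3 low-Slimp arrays in each phase, against 12.0% of all genes, and nothing is read from that count because the choice of the genes led to it. At least 4-fold in both phases was reached by 11 genes. Another 14 lay between 1.5 and 2 in the smaller of their phase values, and 49 lay under 1.5.

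**Figure D1:**
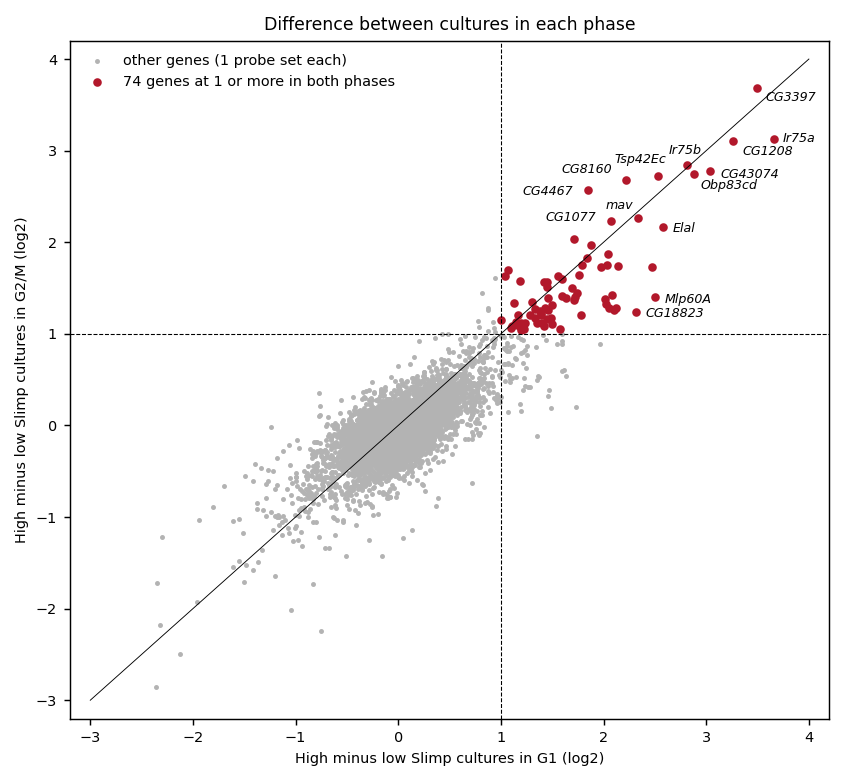
High-Slimp minus low-Slimp mean signal of each gene in G1 (horizontal axis, log2) and in G2/M (vertical axis, log2), 1 probe set per gene. Red points are the 74 genes, grey points all other genes, the dashed lines mark a difference of 1, and the solid line marks equal differences in both phases. CG3397, Ir75a and CG1208 lie farthest from the other genes, above 3 in both phases.

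The 2 high-Slimp cultures were close to each other although they carry opposite labels. The median absolute difference between SLIMPKD 2 and control 3 over the 74 genes was 0.13 in G1 and 0.15 in G2/M, beside 0.10 and 0.11 over all genes. The range among the 3 low-Slimp arrays had a median of 0.32 in G1 and 0.22 in G2/M for the 74 genes. Over all genes it was 0.20 and 0.15. Single genes varied more: Slc45-1 had a range of 1.11 among the low-Slimp arrays of G1 beside a difference of 1.98. The limit was set on differences of means without regard to spread, and nothing is read from these values. ltl, a leucine-rich repeat gene, was the member nearest the limit, with differences of 1.01 in G1 and 1.15 in G2/M. nrm followed at 1.20 and 1.04, and Ugt302C1 at 1.04 and 1.63. The genes nearest below the limit were Ih (1.60 in G1 and 0.996 in G2/M), CG10970 (1.41 and 0.99) and CG42240 (1.10 and 0.98). No break in the values separates the genes inside from those outside.

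**Figure D2:**
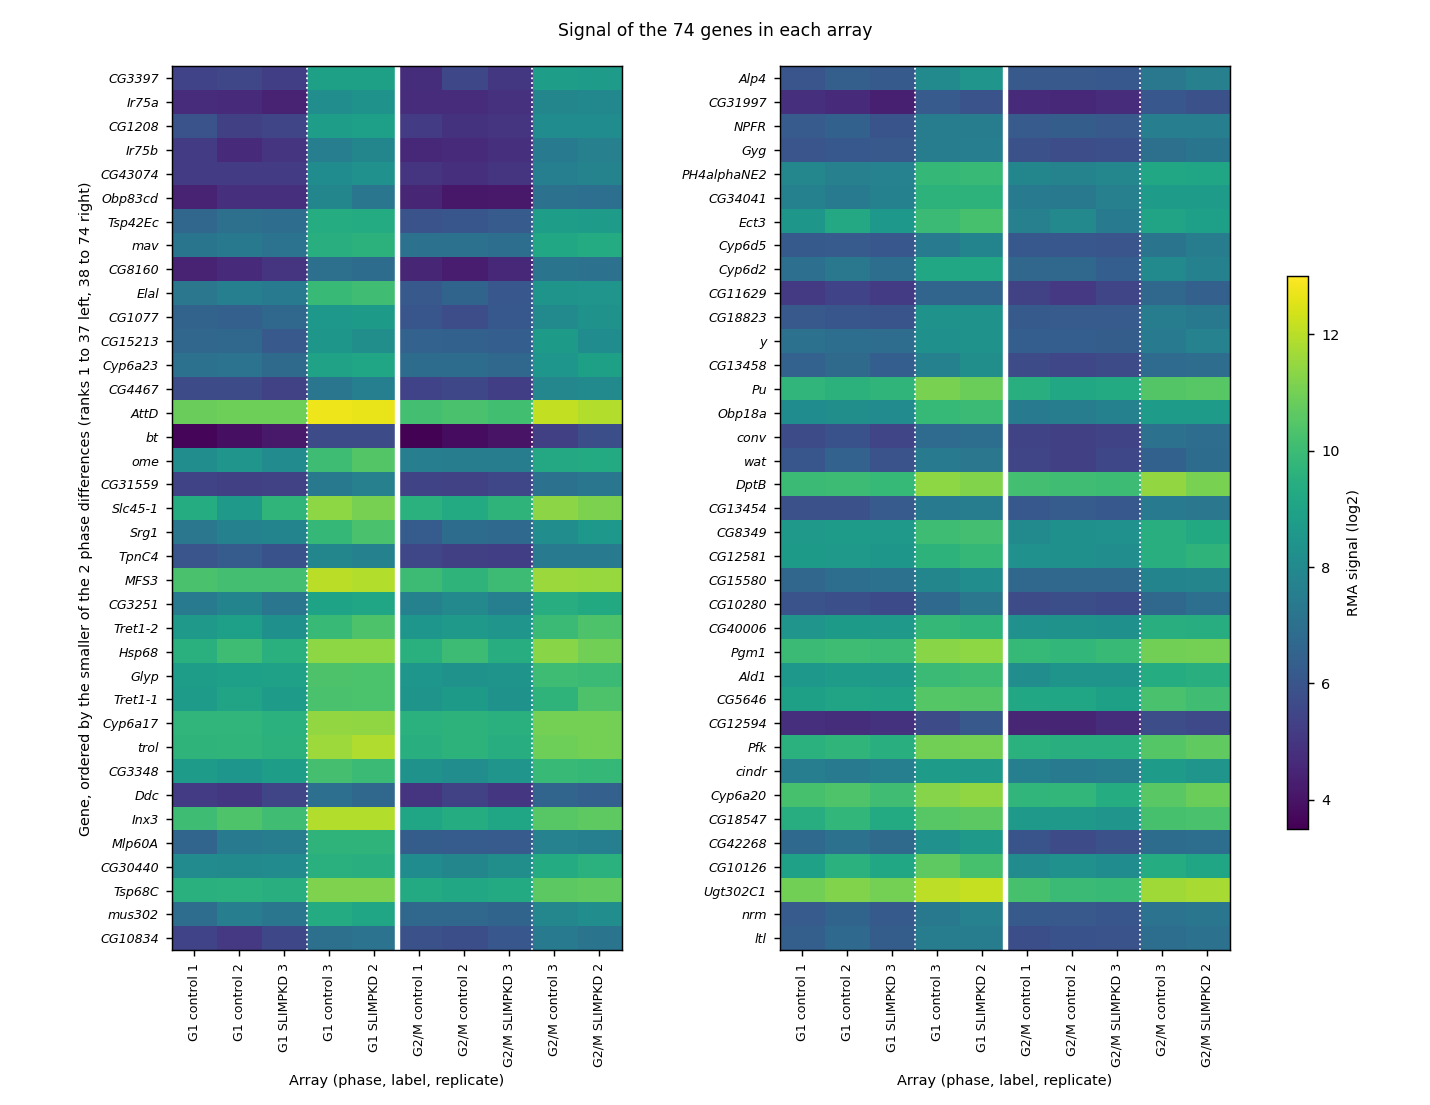
Signal of each of the 74 genes (rows, ordered by the smaller of the differences in G1 and G2/M) on each of the 10 arrays (columns), coloured by log2 signal. The dotted lines separate the 3 low-Slimp from the 2 high-Slimp cultures within each phase, and the white line separates G1 from G2/M. In each row both high-Slimp arrays are brighter than the 3 low-Slimp arrays of that phase.

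The genes covered a wide range of signal. Their highest mean in the high-Slimp arrays of G1 was 12.72, where all genes reached 14.25. In the low-Slimp cultures 26 of the 74 (35.1%) were below the array median on all 6 arrays, against 39.6% of all genes. Above it on all 6 were 37 (50.0%, against 55.4% of all genes). Of those 26, 20 were above the median on all 4 high-Slimp arrays, a crossing made by 32 genes in all. Genes chosen for a rise of at least 1 cross the median more easily, so nothing is read from that share. A switch from dim to above the median describes only these 20, while most of the others were above the median in the low-Slimp cultures already. bt, CG12594 and CG31997 stayed below the median on all 10 arrays, so they rank by relative signal in the lower part of the scale. In G1 their low-Slimp means lay at percentiles 2.89, 17.92 and 13.46 of all probe sets. Their high-Slimp means lay at 35.67, 39.9 and 42.64. At the other end AttD, Cyp6a17, DptB, Hsp68, MFS3, Pgm1, Slc45-1, Ugt302C1 and trol were above the 90th percentile on every high-Slimp array. Those are 9 of the 74, beside 1289 of all 11982 genes. Of the 74, 28 (37.8%) have only a CG number for a symbol, near the 43.6% of all genes.

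**Figure D3:**
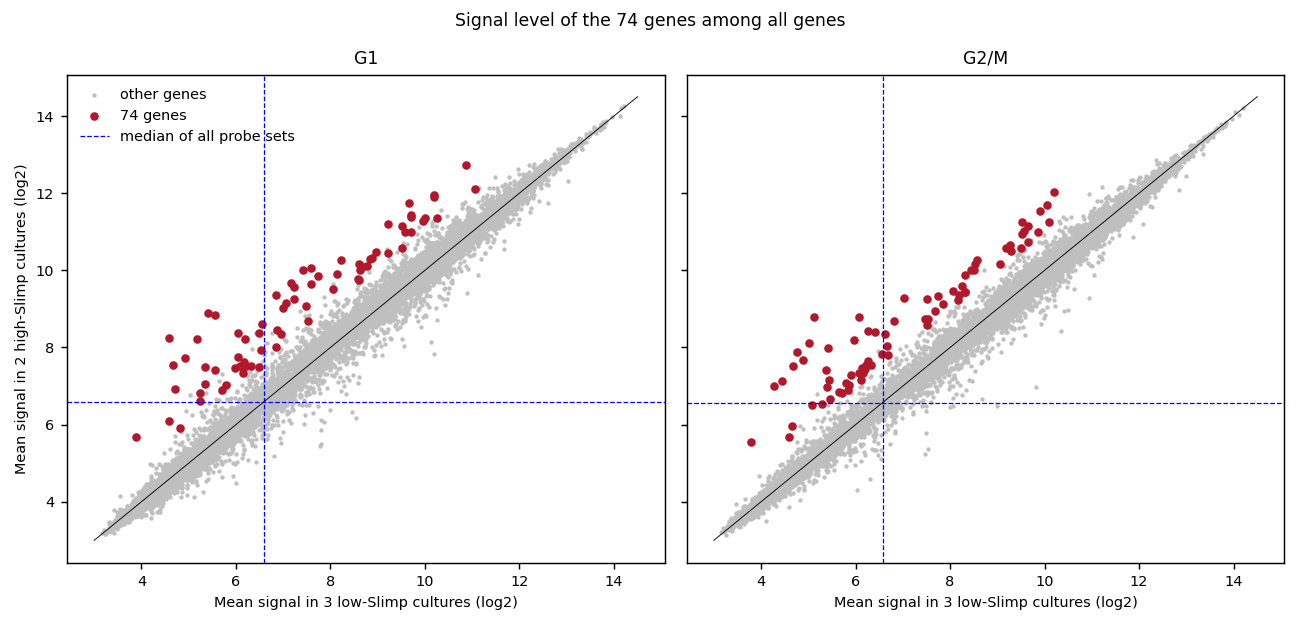
Mean signal in the 2 high-Slimp cultures (vertical axis, log2) against the mean in the 3 low-Slimp cultures (horizontal axis, log2), for G1 on the left and G2/M on the right. Red points are the 74 genes, grey points other genes, the solid line marks equal signal and dashed lines mark the median of all probe sets. The red points run from 3.89 to 11.07 on the horizontal axis in G1, while all genes run from 3.16 to 14.22, and those in the upper left quadrant are dim in the low-Slimp and above the median in the high-Slimp cultures.

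CG3397, which encodes an aldo-keto reductase-like protein, had the largest difference in G2/M and, after Ir75a, the second largest in G1. It read 5.42, 5.53 and 5.27 in the low-Slimp and 8.89 and 8.90 in the high-Slimp cultures in G1, an 11.3-fold difference. In G2/M it read 4.74, 5.56 and 5.05 against 8.84 and 8.75, a 12.8-fold difference. The gene was dim in each low-Slimp culture and above the array median in both high-Slimp cultures, with a gap of more than 3 between the groups in either phase. CG18547, another aldo-keto reductase-like gene that lies close to CG3397 on chromosome arm 3R, was bright in every culture. It read 9.43, 9.81 and 9.31 against 10.54 and 10.62 in G1, and 8.62, 8.65 and 8.46 against 10.25 and 10.29 in G2/M. Its difference was 2.10-fold in G1 and 3.23-fold in G2/M.

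Chemosensory genes held some of the largest differences. Ir75a and Ir75b encode ionotropic receptors, which detect volatile acids in the fly antenna. Ir75a read 4.70, 4.65 and 4.40 against 8.15 and 8.34 in G1, 12.6-fold, and 4.71, 4.72 and 4.85 against 7.86 and 7.92 in G2/M, 8.75-fold. Ir75b read 5.16, 4.62 and 4.96 against 7.58 and 7.88 in G1, 7.03-fold, and 4.58, 4.66 and 4.78 against 7.41 and 7.63 in G2/M, 7.19-fold. Both receptors stood well below the array median in all low-Slimp arrays and above it in all high-Slimp arrays. Obp83cd, an odorant-binding protein gene, read 4.42, 4.78 and 4.82 against 7.87 and 7.23 in G1, and 4.52, 4.13 and 4.16 against 7.04 and 6.98 in G2/M. Obp18a, of the same family, was brighter throughout, at 8.11, 8.19 and 8.09 against 9.86 and 9.96 in G1. In G2/M Obp18a read 7.42, 7.53 and 7.67 against 8.73 and 8.75. These 4 were the members among 227 measured genes of those families, 1.76% of them, and the median difference of all 227 was -0.03 in G1 and -0.02 in G2/M. Neuron markers gave none of the 74: over 19 measured genes the mean signal was 5.99 to 6.07 in high-Slimp and 5.96 to 6.13 in low-Slimp arrays. elav, the pan-neuronal RNA-binding protein, read 10.16 to 10.40 on all arrays.

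Transport of sugars and other small solutes was represented by 5 of 60 measured transporter genes (8.33%), with list medians of 0.04 in G1 and 0.01 in G2/M. CG1208, a sugar transporter-like gene, had the third largest difference of the 74. It read 5.94, 5.29 and 5.47 against 8.80 and 8.86 in G1, 9.61-fold, and 5.15, 4.91 and 4.97 against 8.11 and 8.12 in G2/M, 8.61-fold. Its low-Slimp arrays were all below the array median and its high-Slimp arrays all well above it. Slc45-1, a sugar transporter, read 9.37, 8.60 and 9.71 against 11.37 and 11.04 in G1, and 9.58, 9.30 and 9.68 against 11.36 and 11.14 in G2/M. MFS3, of the major facilitator superfamily, read 10.25, 10.17 and 10.17 against 12.03 and 11.89 in G1, and 10.01, 9.69 and 10.02 against 11.56 and 11.54 in G2/M. Both genes were already bright in low-Slimp cultures, unlike CG1208. Tret1-1 and Tret1-2 encode facilitated trehalose transporters and were 2.74-fold and 2.94-fold higher in G1 and 2.85-fold and 3.09-fold higher in G2/M. Mct1 and ZnT35C, of the same list, were among the 31 genes at least 1 lower in high-Slimp cultures in both phases.

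Enzymes that make and break glycogen were also among the 74. Glyp, glycogen phosphorylase, read 8.81, 8.88 and 8.94 against 10.33 and 10.32 in G1, 2.74-fold, and 8.49, 8.39 and 8.43 against 10.04 and 9.96 in G2/M, 2.95-fold. Gyg, the glycogenin that primes a glycogen particle, read 6.005, 6.11 and 6.16 against 7.51 and 7.55 in G1, and 5.84, 5.75 and 5.82 against 6.99 and 7.18 in G2/M. Pgm1, phosphoglucomutase, which links glycogen to glycolysis, read 9.97, 10.04 and 9.98 against 11.30 and 11.40 in G1, and 9.87, 9.81 and 9.94 against 10.96 and 11.01 in G2/M. In each of these the 2 kinds of culture were separated by more than 1 in G1, which describes genes chosen for that difference. With Tret1-1 and Tret1-2 they made 5 of 12 measured genes in a list of glycogen and trehalose metabolism that was drawn up after these values were seen. Over the 12 genes the median difference was 0.74 in G1 and 0.46 in G2/M, and 11 of 12 were above 0 in both phases. Outside the 74, Glys (glycogen synthase) differed by 0.87 in G1 and 0.43 in G2/M, and AGBE (the branching enzyme) by 0.61 and 0.48. Treh, trehalase, differed by 0.37 and 0.39. Tps1, which makes trehalose, stood at 0.01 and -0.11.

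Glycolysis gave 2 of 16 measured genes. Pfk, phosphofructokinase, read 9.57, 9.71 and 9.47 against 10.96 and 11.03 in G1, and 9.57, 9.46 and 9.48 against 10.51 and 10.67 in G2/M. Ald1, aldolase, read 8.56, 8.72 and 8.59 against 9.99 and 10.05 in G1, and 8.16, 8.41 and 8.40 against 9.37 and 9.51 in G2/M. As in all 74 genes, by choice, neither overlapped between the groups. A second, brighter probe set of Ald1, with a mean of 11.46 over the arrays against 8.97, differed by only 0.59 in each phase. Chosen by that probe set, Ald1 would not be among the 74 and glycolysis would give 1 gene. The median over the 16 genes was 0.38 in G1 and 0.24 in G2/M, with 10 of 16 above 0 in both phases. Tpi, triose phosphate isomerase, missed the limit narrowly at 0.93 in G1 and 1.07 in G2/M. Pgi, at the top of the pathway, differed by 0.82 and 0.31. fbp, fructose-1,6-bisphosphatase, the gluconeogenic enzyme opposite Pfk, had negative differences of -0.85 in G1 and -0.55 in G2/M. Nuclear-encoded subunits of oxidative phosphorylation gave none of the 74 among 72 measured genes, with medians of -0.14 in both phases, and mitochondrial ribosomal proteins gave none of 69.

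**Figure D4:**
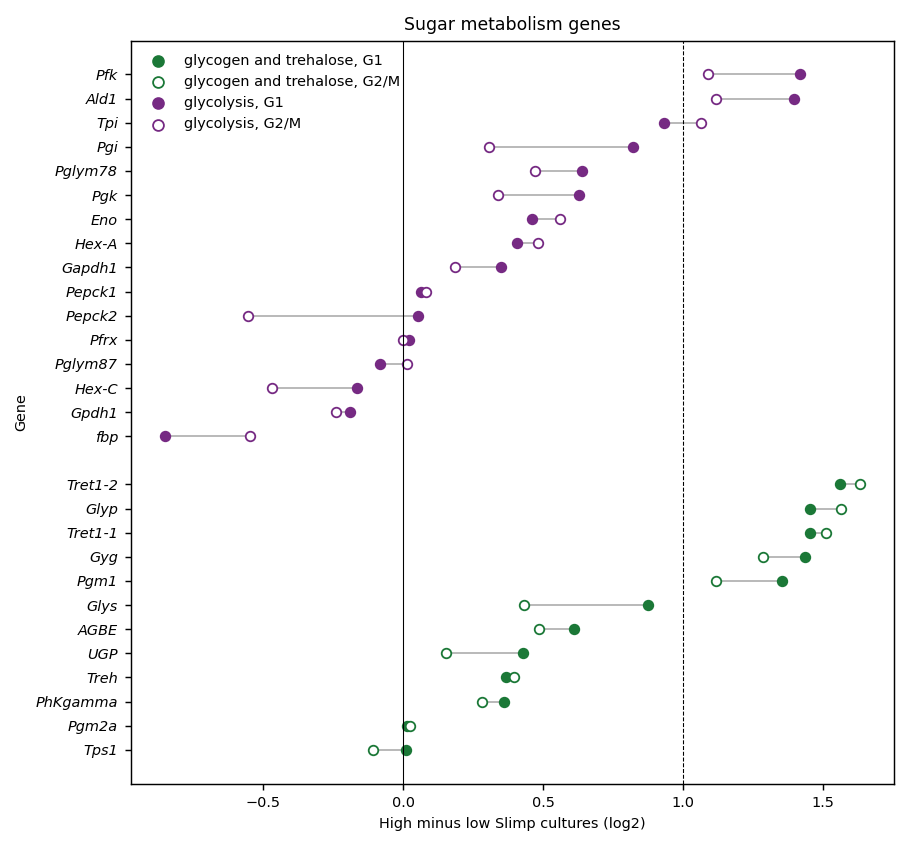
High-Slimp minus low-Slimp mean signal (horizontal axis, log2) of each measured gene of glycolysis (purple, 16 genes) and of glycogen and trehalose metabolism (green, 12 genes), with filled points for G1 and open points for G2/M. The dashed line marks the limit of 1 that chose the 74 genes. Pfk, Ald1, Tret1-2, Glyp, Tret1-1, Gyg and Pgm1 lie at or beyond it in both phases, while Tps1 lies near 0 and fbp on the other side of 0.

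Among enzymes of detoxification, cytochrome P450 genes gave 5 of 83 measured genes (6.02%), and all of them were of the Cyp6 subfamily, 5 of its 23 measured genes. Cyp6 enzymes oxidise foreign compounds such as plant toxins and insecticides. Cyp6a23 read 7.07, 7.13 and 6.77 against 8.96 and 9.10 in G1, 4.11-fold, and 6.87, 6.86 and 6.72 against 8.48 and 8.89 in G2/M, 3.65-fold. Cyp6d2 was 4.28-fold higher in G1 and 2.39-fold in G2/M. Cyp6a17, Cyp6d5 and Cyp6a20 were 3.34-fold, 2.74-fold and 2.14-fold higher in G1 and 2.72-fold, 2.40-fold and 2.10-fold in G2/M. The Cyp6 subfamily was listed by itself after these values were seen, and its median was 0.13 in G1 and 0.15 in G2/M, while that of all 83 P450 genes was 0.03 and 0.01. Ugt302C1, a UDP-glycosyltransferase, was 1 of 69 genes of the glutathione S-transferase and UDP-glycosyltransferase families. It read 10.99, 11.20 and 11.02 against 12.05 and 12.16 in G1, and 10.22, 9.99 and 9.95 against 11.63 and 11.74 in G2/M.

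Pu (GTP cyclohydrolase, which opens the synthesis of pterins and of the cofactor of tyrosine hydroxylase), Ddc (dopa decarboxylase, which makes dopamine) and y (yellow, needed for black melanin) were 3 of 17 measured genes of the pterin, catecholamine and melanin pathway, a list also drawn up after the values were seen. Pu read 9.76, 9.62 and 9.72 against 11.10 and 10.86 in G1, and 9.45, 9.15 and 9.30 against 10.48 and 10.53 in G2/M. Ddc was dim in low-Slimp cultures, at 5.19, 5.04 and 5.48 against 6.96 and 6.70 in G1, and 4.94, 5.32 and 5.002 against 6.60 and 6.40 in G2/M. y read 7.03, 6.93 and 6.88 against 8.28 and 8.39 in G1, and 6.32, 6.33 and 6.31 against 7.40 and 7.69 in G2/M. The median difference of the 17 genes was 0.17 in G1 and 0.08 in G2/M.

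AttD and DptB, both of which encode antimicrobial peptides induced through the Imd pathway, were 2 of 46 measured genes of immunity. AttD was the brightest of the 74, at 10.82, 10.90 and 10.92 against 12.74 and 12.70 in G1, and 10.18, 10.26 and 10.13 against 12.12 and 11.92 in G2/M, 3.58-fold and 3.54-fold. DptB read 9.98, 9.998 and 9.88 against 11.37 and 11.21 in G1, and 10.17, 10.08 and 10.02 against 11.45 and 11.07 in G2/M. The median of the 46 genes was 0.10 in G1 and 0.05 in G2/M, and 23 of 46 were above 0 in both phases. Hsp68, a chaperone of the Hsp70 family strongly induced by heat, was 1 of 17 heat shock and co-chaperone genes. It read 9.52, 10.06 and 9.52 against 11.40 and 11.39 in G1, and 9.51, 10.002 and 9.44 against 11.33 and 10.98 in G2/M, with control 2 the highest of the low-Slimp cultures in both phases. Hsp26, a small heat shock protein, differed by 0.93 in each phase and fell short of the limit, and the list's medians were 0.11 and 0.13.

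Genes of the cell surface, of signalling and of the matrix included some of the larger differences. Tsp42Ec, a tetraspanin, a small protein that spans the membrane and organises others in it, read 6.62, 6.99 and 6.91 against 9.38 and 9.36 in G1, and 5.91, 6.05 and 6.22 against 8.82 and 8.76 in G2/M. That was 5.76-fold and 6.62-fold. A second tetraspanin, Tsp68C, was 3.11-fold and 2.62-fold higher, and they were 2 of 33 measured tetraspanins, whose median difference was -0.01 in both phases. mav, or maverick, a ligand of the TGF-beta family on chromosome 4, read 7.20, 7.34 and 7.13 against 9.50 and 9.62 in G1, and 7.05, 7.06 and 6.95 against 9.21 and 9.35 in G2/M, 5.06-fold and 4.79-fold. It was the only member among 66 measured genes of the Notch, Wnt, Hedgehog, TGF-beta, FGF/EGF and JAK/STAT pathways. trol, perlecan of the basement membrane, read 9.66, 9.72 and 9.62 against 11.62 and 11.88 in G1, and 9.49, 9.66 and 9.43 against 10.89 and 10.9996 in G2/M. Inx3, an innexin of gap junctions, read 10.06, 10.40 and 10.09 against 11.92 and 11.89 in G1, and 9.09, 9.39 and 9.07 against 10.55 and 10.63 in G2/M. NPFR, the receptor of neuropeptide F, was 2.47-fold higher in G1 and 2.54-fold in G2/M, and PH4alphaNE2, 1 of 8 measured prolyl 4-hydroxylase alpha subunits, was 4.36-fold and 2.43-fold higher. The other 7 of these subunits had no member, and the median of all 8 was -0.07 in G1 and -0.04 in G2/M. None of 104 measured genes of cell adhesion, 141 of cuticle and mucin, 73 of peptidases and serpins, or 135 developmental regulators as listed was in the set. Since only 0.618% of all genes were members, nothing is read from these absences.

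A few genes of muscle were included. Mlp60A encodes a muscle LIM protein, bt the giant sarcomere protein projectin, and TpnC4 a troponin C. Mlp60A read 6.61, 7.40 and 7.51 against 9.67 and 9.69 in G1, and 6.30, 6.25 and 6.24 against 7.72 and 7.60 in G2/M. bt read 3.67, 3.87 and 4.14 against 5.70 and 5.67 in G1, and 3.55, 3.81 and 4.02 against 5.30 and 5.78 in G2/M, so it was among the dimmest genes of the array in low-Slimp cultures. TpnC4 read 6.004, 6.25 and 5.91 against 7.86 and 7.67 in G1, and 5.52, 5.32 and 5.27 against 7.45 and 7.37 in G2/M. Mlp60A and bt were 2 of 17 measured muscle markers, whose median difference was -0.07 in G1 and 0.03 in G2/M. The mean signal of the 17 was 6.26 to 6.46 in high-Slimp and 6.09 to 6.33 in low-Slimp arrays, and single markers differed widely in level. Act88F and Tm2 read at most 5.20 and 5.79 on any array, sls 5.79 to 7.14 and Mf 12.45 to 12.86. The differences of sls were -0.46 in G1 and -0.04 in G2/M, and those of Mf 0.28 and 0.17.

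Other cell types were also checked through their markers. Crystal cell, lamellocyte, ovarian somatic, fat body, testis and general haemocyte lists gave none of the 74. The mean signal of the 24 haemocyte markers was 10.02 to 10.15 in high-Slimp and 10.16 to 10.39 in low-Slimp arrays, ranges that do not overlap. Hml and eater, which define plasmatocytes, read 11.14 to 11.71 and 10.84 to 11.15 over all arrays, above the array median in every culture. Of the 24 markers, however, 16 were lower in high-Slimp cultures in both phases and 6 were higher in both. NimC4, a Nimrod family gene, was among the 31 genes at least 1 lower, with differences of -1.22 in G1 and -1.14 in G2/M. Pxn, peroxidasin, stood at -0.77 and -0.57, vkg, a collagen IV chain, at -0.43 and -0.61, and NimC1, a phagocytosis receptor, at -0.36 and -0.21. The yolk protein gene Yp1 and the larval serum protein gene Lsp2 read at most 5.08 and 4.31. The part of a difference in haemocyte state in the values of the 74 genes was not tested. Copper-response genes gave none of the 74 among 17 measured. The metallothionein gene MtnB nevertheless read 11.19, 11.67 and 11.28 against 10.67 and 10.54 in G1, and 10.11, 10.01 and 9.81 against 8.92 and 8.59 in G2/M, without overlap and in the opposite direction to the 74. MtnA, near the top of the scale, also split, at 13.995 to 14.029 in high-Slimp and 14.10 to 14.15 in low-Slimp arrays. The part of the copper response in the values of the 74 genes was not tested either. In all, 24 of the 74 genes fell in 10 of the 26 lists first drawn up, 33 fell in any of 33 lists with the 7 added later, and 41 were in none. With 0.618% of all genes in the set, nothing is read from any list above that held no member, such as those of neurons and oxidative phosphorylation.

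Among those 41, CG3397, CG43074, CG8160, Elal and CG1077 had differences of at least 4-fold in both phases. CG43074 read 5.19, 5.14 and 5.20 against 8.12 and 8.31 in G1, and 4.91, 4.83 and 4.91 against 7.61 and 7.73 in G2/M. CG8160 read 4.45, 4.68 and 4.98 against 7.0 and 6.86 in G1, and 4.51, 4.24 and 4.60 against 7.16 and 7.09 in G2/M. Elal read 7.25, 7.61 and 7.40 against 9.91 and 10.10 in G1, and 6.15, 6.56 and 6.09 against 8.41 and 8.45 in G2/M. The low-Slimp arrays of CG43074 spanned 0.06 in G1 and 0.08 in G2/M. CG1077 was 4.19-fold and 4.71-fold higher, CG15213 3.69-fold and 3.92-fold, and CG4467 3.59-fold and 5.94-fold. Enzymes outside the lists included Alp4, an alkaline phosphatase (4.08-fold in G1 and 2.51-fold in G2/M), Ect3, related to beta-galactosidase (2.52-fold and 2.42-fold), and wat, a fatty acyl-CoA reductase of the trachea (2.25-fold and 2.30-fold). mus302, named for mutant sensitivity to mutagens, was 4.05-fold and 2.60-fold higher.

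Several members lay near each other on the chromosomes. In the gene order of RefSeq (Release 6 assembly), 22 of the 74 (29.7%) had another member within 5 genes on either side, and 421 of 11819 other placed genes (3.56%) had a member as near. That gave 16 pairs, of which 6 were direct neighbours: Tret1-1 with Tret1-2, Cyp6a17 with Cyp6a23, Ir75a with Ir75b, CG31559 with CG1077, Srg1 with Elal and CG34041 with PH4alphaNE2. Cyp6a20 stood near the Cyp6a pair, NPFR near CG31559 and CG1077, and Ect3 and CG18547 near CG3397. The 8 measured genes in the gaps that were not members had smaller differences. CG12224, between CG18547 and CG3397, was higher by 0.57 in G1 and 0.66 in G2/M, Cyp6a9 by 0.60 and 0.49, and Or83c by 0.73 and 0.47. Gasp, between Or83c and Obp83cd, stood at 0.21 and 0.25, Ugt50B3 at 0.46 and 0.52, and Cyp6a19 at 0.27 and 0.23. Osi1 and CtsL3 were below 0 in G1, at -0.17 and -0.17, and above it in G2/M, at 0.11 and 0.17. The neighbours share more than place: 3 of the direct pairs belong to 1 gene family each, and whether probe sets of such copies also bind each other's transcripts was not tested. Their values are therefore uncertain as separate measurements. No test was made of the clustering. By chromosome arm, 3R held 29 members (39.2%, against 25.01% of genes), 2R 16, 3L 14, 2L 8 and X 4 (5.41%, against 15.7%). The small chromosome 4 held 3, bt, mav and CG31997, of 65 measured genes. Slimp is also on 3R, and its direct neighbours Kal1 and p38c were not members, with differences of -0.59 and -0.31 in G1 and -0.38 and -0.20 in G2/M.

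Other probe sets of the same genes did not always move alike. Of the 74 genes 11 had more than 1 probe set, with 22 further probe sets in all. Only 3 of the 22 were also at 1 or more in both phases, 2 for trol and 1 for CG15213, while 16 were above 0 in both and 10 were under 0.2 in at least 1 phase. The second probe set of CG15213 gave 1.75 in G1 and 1.94 in G2/M, close to the first at 1.88 and 1.97. For trol, which had 8 probe sets, 3 lay between 1.37 and 2.16, and another 3 lay between -0.16 and -0.10. Those of ome, a dipeptidyl peptidase gene, were split in the same way, with 2.03 and 1.75 in the probe set that counted and -0.10 to 0.15 in the other 3. cindr, an adaptor protein gene, had probe sets of opposite sign, 1.17 and 1.08 in the one that counted and -1.63 and -1.56 in the other, which was brighter (mean 10.65 against 7.96). Several of the probe sets with differences near 0 were dim, such as those of ome with means of 4.28 and 5.17. Others near 0 lay above the array median, such as a probe set of trol with a mean of 7.91 and the remaining one of ome with 6.89. For these genes the difference is that of 1 probe set, and why the others differ was not tested. The probe sets of CG15213, CG43074, Ald1 and CG12581 carry name suffixes (x and s) that the manufacturer uses for probes shared by several transcripts or similar sequences.

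The differences held in both phases by choice, but their sizes depended on phase. The difference was larger in G1 for 54 genes and in G2/M for 20, and for 59 genes the phases were within 0.5 of each other. It was larger in G1 by 0.5 or more for 12 genes and in G2/M for 3. Mlp60A differed by 2.504 in G1 and 1.40 in G2/M, CG18823 by 2.32 and 1.24, and PH4alphaNE2 by 2.12 and 1.28. CG4467 was the reverse, at 1.85 in G1 and 2.57 in G2/M, followed by CG18547 (1.07 and 1.69) and Ugt302C1 (1.04 and 1.63). In CG18823 the signal changed little with phase in the low-Slimp cultures, by 0.04, 0.17 and 0.24 from G1 to G2/M, and by -0.84 and -1.02 in the high-Slimp cultures. In CG4467 it was -0.25, -0.10 and -0.12 in the low-Slimp and 0.66 and 0.47 in the high-Slimp cultures. These comparisons use the values that chose the genes and were not tested.

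A measure the choice did not use is the difference between phases averaged over the 5 cultures, since each culture gave 1 array of each phase. Most of the genes were lower in G2/M than in G1. In 43 of 74 (58.1%) the G2/M array was below the G1 array in all 5 cultures, against 14.7% of all genes, and in 2 (2.70%, against 18.8%) it was above in all 5. The median phase difference of the 74 was -0.30, beside 0.01 over all genes, and 66 of 74 were below 0. In both high-Slimp cultures 59 of the 74 (79.7%) were lower in G2/M, against 32.6% of all genes. In all 3 low-Slimp cultures 48 (64.9%) were lower, against 23.6% of all genes. The medians by culture were -0.25, -0.33 and -0.20 in the low-Slimp and -0.42 and -0.36 in the high-Slimp cultures. Unlike the average over the 5 cultures, counts and medians within 1 kind of culture are not separate from the values that chose the genes. Nothing is read from how they differ between the 2 kinds. Among the 31 genes at least 1 lower with high Slimp signal, 10 (32.3%) were lower and 8 (25.8%) were higher in G2/M in all 5 cultures. Both shares were above those of all genes, 14.7% and 18.8%, so a raised share of falls was not confined to the 74.

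**Figure D5:**
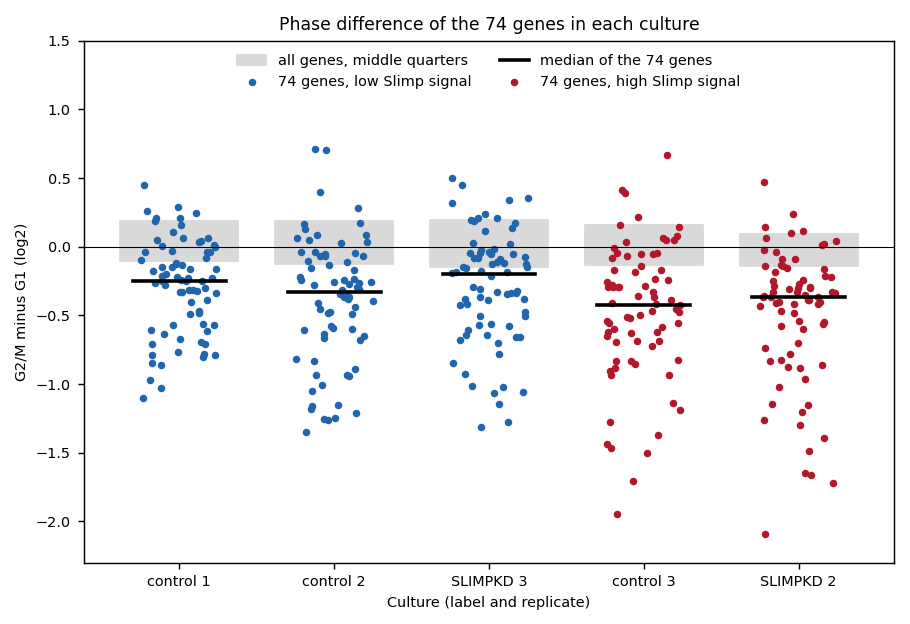
G2/M minus G1 signal (vertical axis, log2) of the 74 genes in each of the 5 cultures (horizontal axis), 1 point per gene, blue for low-Slimp and red for high-Slimp cultures. Black bars are medians of the 74 genes, from -0.20 to -0.42, and grey boxes span the interquartile range of all genes. In each culture the median of the 74 genes lies below the grey box.

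In limma with the genotype label as a term and no block, none of the 74 passed an adjusted p of 0.05 for G2/M against G1, while 1369 of 18769 probe sets did (7.29%, 853 higher and 516 lower in G2/M). At an unadjusted p under 0.05 there were 5 members, all lower, 6.76% of the 74 against 20.7% of all probe sets. In this fit the gap between high-Slimp and low-Slimp cultures counts as spread, and for these genes that gap is large by choice. After cyclic loess normalization the split of the calls was 730 higher and 686 lower, and no member passed. With culture as a block, which compares the phases within each culture, 44 of the 74 were called, 42 lower and 2 higher in G2/M. All probe sets were called in 19.3% of cases with that block, 9.00% lower and 10.3% higher. The 42 are 56.8% of the 74, and these calls rest on the assumed pairing of arrays by number.

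Within the culture block the largest fall was that of Mlp60A, whose signal changed by -0.32, -1.15 and -1.28 from G1 to G2/M in the low-Slimp and by -1.95 and -2.09 in the high-Slimp cultures. Its mean change was -1.36 ± 0.22 (SE, limma, adjusted p = 0.00366 with the block and 0.251 without). Control 1 gave the smallest change of the 5 cultures. Elal changed by -1.11, -1.05 and -1.31 in the low-Slimp and by -1.50 and -1.65 in the high-Slimp cultures, on average -1.32 ± 0.09 (SE, limma, adjusted p = 0.000106 with the block and 0.354 without). Its neighbour Srg1 changed by -1.03, -0.82 and -1.06 and by -1.70 and -1.72, on average -1.27 ± 0.14 (SE, limma, adjusted p = 0.000666 with the block and 0.307 without). In both neighbours the cultures moved alike, and the high-Slimp cultures changed most. CG42268 averaged -1.23 ± 0.12 and Inx3 -1.13 ± 0.07 (SE), with limma adjusted p of 0.000467 and 8.72e-05 with the block and 0.108 and 0.219 without. The 2 genes called higher in G2/M were CG10834, at 0.42 ± 0.09 (SE, limma, adjusted p = 0.0129 with the block and 0.710 without), and CG3251, at 0.27 ± 0.06 (SE, adjusted p = 0.0125 and 0.846). CG10834 was above 0 in all 5 cultures, but by only 0.01 in SLIMPKD 2.

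Phase calls with the block ran through several of the classes. Of the sugar genes, CG1208 (-0.62), Ald1 (-0.41), Glyp (-0.39), Gyg (-0.35), MFS3 (-0.34), Tret1-1 (-0.31) and Pgm1 (-0.22) fell in G2/M, whereas Pfk (-0.21, adjusted p = 0.106), Tret1-2 (-0.04, adjusted p = 0.794) and Slc45-1 (0.19, adjusted p = 0.244) were not called. Obp18a fell by 0.82 and Obp83cd by 0.46, while the receptors Ir75a (-0.04, adjusted p = 0.883) and Ir75b (-0.23, adjusted p = 0.0930) were not called. Of the immune peptides, AttD fell by 0.69 (adjusted p = 0.000192) and DptB stood at 0.07 (adjusted p = 0.494). The difference between the 2 was not tested.

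The comparison that the labels imply, SLIMPKD against control, mixes both kinds of culture in each group. For none of the 74 did it pass an adjusted p of 0.05 in limma, averaged over the phases, in G1 or in G2/M, and it did for 0% of the 18769 probe sets. At an unadjusted p under 0.05 there were no members in any of these, against 1.42%, 2.57% and 0.874% of all probe sets. In these fits the gap that chose the genes counts as spread within each label, so nothing is read from that absence. The median labelled difference of the 74 was 0.27 averaged over the phases, and it went from -0.52 without SLIMPKD 2 to 1.03 without SLIMPKD 3, with all 74 below 0 in the first case and all above 0 in the second. Without control 3 it was 0.73, and without control 1 or control 2 it was 0.01 and 0.03. Because these same cultures chose the genes, the signs on leaving out a culture follow largely from the choice, and nothing is read from them. In AttD, for example, the highest and the lowest culture of each label lay on opposite sides of the gap. For the difference of the phase effect between the labels, 0% of probe sets and no member passed. No member had an unadjusted p under 0.05 (1.77% of all probe sets), in a fit where the gap again counts as spread. With culture as a block, 2 members had an unadjusted p under 0.05, wat and CG13454, against 3.61% of all probe sets. Again none passed after adjustment.

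The array controls for RNA quality moved with the kind of culture only in part. The 3′ minus 5′ signal of the actin control was 0.59 to 0.65 in high-Slimp and 0.35 to 0.46 in low-Slimp arrays of G1, and 0.46 to 0.52 against 0.35 to 0.49 in G2/M. For eIF-4a it was 1.19 to 1.28 against 1.32 to 1.44 in G1 and 1.29 to 1.37 against 1.32 to 1.46 in G2/M, the other way round. For GAPDH it was 0.93 to 1.06 against 1.04 to 1.16 in G1 and 1.04 to 1.12 against 1.18 to 1.31 in G2/M. The controls did not shift in a single direction, and their part in the values of the 74 genes was not tested. Array medians lay between 6.55 and 6.61.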

How the data were processed

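The values deposited by the authors are log2 signals per probe set. The submitters' processing notes name RMA, without a version. RMA scales all arrays to nearly the same distribution, and would hide a shift of most transcripts together. Of 18952 probe sets, 183 array controls were left out and 18769 were tested, and dim ones were kept. By the platform annotation 13647 had 1 symbol, 402 had several and 4720 had none. RefSeq (Release 6) was used to update symbols and matched 13544. The rule was passed by 91 probe sets, of which 11 had no symbol and 2 several; the other 77 besides Slimp stand for the 74 genes, all matched and protein-coding. No column was left without a sample (0).

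Contrasts were fitted with limma 3.58.1 in R 4.3.3 on the deposited values, with Benjamini-Hochberg adjustment over all 18769 probe sets at 0.05. The phase contrast used genotype label plus phase, with culture as a block as an alternative; the labelled contrasts used 1 coefficient per group. The numbers were taken to pair the phases within a label. Deviations of G1 and G2/M arrays of 1 label and number from their group means correlated at 0.555, 0.514 and 0.685 for control 1, 2 and 3. For both SLIMPKD cultures the value was 0.655 (forced equal by groups of 2). These values cannot support the pairing, because each label mixes high-Slimp and low-Slimp arrays. The gap between them, present in both phases, makes such deviations correlate whether or not the numbers pair. The pairing remains an assumption, and no correlations between different numbers are given. No arrays of a group held identical values. On simulated data for G2/M against G1 over 18769 probe sets, 200 were changed by 1 (log2). The fit without a block recovered 185 with 2 false calls, and the block 197 with 8. The 185 cannot be read as power for the members, because their large gap between kinds of culture counts as spread without a block. Mlp60A, for example, changed by -1.36 ± 0.62 (SE, limma) from G1 to G2/M in that fit, with an adjusted p of 0.251.

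Named genes were Slimp, the 15 members with the largest smaller-of-phases difference, the 3 nearest on each side of the limit, up to 5 members called in each direction between phases, the 3 with the largest phase dependence each way, and up to 4 members per list. Any further gene was picked for naming with its values in view. The members and lists were chosen with earlier results of these data known, and 7 lists were added after the members were seen. The small number of arrays limits precision. Alternatives are given in the closing section.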

Additional observations from a re-analysis of the deposited data

How the results depend on the processing

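The count of genes at 1 or more in both phases was 74; it was 121 at a limit of 0.8 and 25 at a limit of 1.5. It was 75 with medians in place of means, 50 when the lowest high-Slimp array had to exceed the highest low-Slimp array by 1, 72 with the probe set chosen before the limit (Ald1 and cindr dropped out), 74 after quantile and 76 after cyclic loess normalization, and 72 to 79 when a culture was left out, with 67 to 73 of the 74 shared. For the 15 genes with the largest differences, the smaller phase value stayed at 1.54 or more under every one of these settings that was run for them. The cultures were taken to be paired across phases, which the labels do not state. With culture as the replicate block the phase calls rose from 1369 to 3623 and the members called from 0 to 44. Members called with that block were 45 after quantile and 47 after cyclic loess normalization, and 38 to 40 with each culture left out in turn (settings added after seeing the data). Without a block, phase calls ranged from 281 to 1506 with a culture left out: 359 without control 1, 281 without control 2 and 598 without SLIMPKD 3. No member was called in any fit without the culture block. Replicate number as a block across labels, where control and SLIMPKD share only a number, gave 1282 phase calls. All 69 alternative values for the 7 genes named for phase kept their sign. The labelled contrasts gave 0 calls under all settings run. Promoter motifs were not searched. No detection calls were used, so the order of dim genes rests on relative signal.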
